A study of Homo sapiens and Mus musculus with 30 samples.

Results

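The mitochondrially encoded transcripts are the RNAs of the small circular genome inside mitochondria. They were taken as every gene whose symbol starts with MT- in the human tables or mt- in the mouse table. No measured value decided which genes belong. The group, and the nuclear lists set beside it, were chosen with earlier results of these data known. The HEK293A table of polysome and total RNA listed 15 of them among 11342 genes, which were 13 messenger RNAs and 2 ribosomal RNAs. The let-7a table and the small RNA table each listed 37 among 57820 genes, 22 of them transfer RNAs, and 3 transfer RNAs were at 0 throughout in each. The NIH3T3 table listed 37 among 41128 genes, and 14 of its transfer RNAs were at 0 in every library.

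The mitochondrial genome encodes subunits of the respiratory chain together with the ribosomal and transfer RNAs used to make them. Both of its strands are transcribed as long precursors, which are cut mainly at the transfer RNAs into separate messages. These messages are translated inside the organelle by mitochondrial ribosomes, whose proteins come from nuclear genes and whose RNAs are 12S (MT-RNR1) and 16S (MT-RNR2). Cytosolic polysomes, by contrast, are strings of cytosolic ribosomes on nuclear messages, and AGO2 is a mainly cytosolic protein that holds microRNAs such as let-7.

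LIN28B is an RNA-binding protein that blocks maturation of the let-7 microRNAs. The study compared ribosome-bound with total RNA at 5 levels of LIN28B, from X0, the knockout, to X4, the highest, in human HEK293A cells, which derive from embryonic kidney, and in NIH3T3 fibroblasts of the mouse. A further pair of HEK293A X0 libraries, polysome and total, came from cells transfected with 10 nM let-7a. A set of 8 small RNA libraries crossed knockout with X3, let-7 transfected with not transfected, and AGO2-bound with total. All cells grew in DMEM with 10% FBS, and LIN28B transgenes were induced with 10 ng/ml doxycycline. The labels do not say whether X0 received it, whether each level is 1 clone, or what is meant by "wt" in the small RNA titles, read here as no let-7. The polysome libraries used a poly(A) kit.

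Each level and fraction had 1 library in the tables, 30 in all. The design text speaks of 2 replicates for the polysome experiments, and whether the columns pool them is not stated. The tests across levels therefore measure scatter around a trend over 5 libraries, not biological replication. Library size, recovered from the spacing of the RPKM values, was 38.0 to 56.6 M reads (M, 1e6) for HEK293A total RNA, 9.15 to 14.7 M for HEK293A polysomes and 15.9 to 25.0 M in NIH3T3. LIN28B itself was 3.60, 23.0, 33.4, 81.2 and 208 RPKM in HEK293A total RNA from X0 to X4, in the labelled order. The mouse Lin28b row read 0.00740 to 0.354 RPKM in NIH3T3 total RNA. In HEK293A the epithelial keratins KRT8 and KRT18 were at 45.4 to 57.2 RPKM, while NEFM and PAX2 were not listed. In NIH3T3 the fibroblast collagen Col1a1 was at 158.8 to 448 RPKM and the leukocyte marker Ptprc was at 0.

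In HEK293A total RNA the cytochrome c oxidase message MT-CO3 was the most abundant messenger per length, with a median of 9187 RPKM and a range of 8509 to 10292 over the 5 levels. The other oxidase messages followed, MT-CO2 at a median of 5947 RPKM and MT-CO1 at 5581, whose ranges overlapped. Next came cytochrome b of complex III, MT-CYB, at 3350 RPKM, the ATP synthase subunit MT-ATP6 at 2910 and the complex I subunit MT-ND4 at 2373, each overlapping its neighbour. The lowest was MT-ND6, the only messenger read from the opposite strand, at 590 to 696 RPKM, and its range overlapped those of MT-ND2 and MT-ND3 but not that of the gene just above it by median, MT-ND4L. At X0 MT-ND3 was slightly lower, at 666 against 668 RPKM, and at X4 MT-ND2 was, at 644 against 648. Together the mitochondrially encoded genes made up 3.86 to 4.75% of HEK293A total RNA reads and 0.442 to 0.846% of polysome reads. Exact intervals on these shares extended at most 0.0121 percentage points to either side and cover counting error only. MT-ATP8 and MT-ATP6 overlap, as do MT-ND4L and MT-ND4, and MT-ND6 lies antisense to other mitochondrial sequence. Strand and multiple mapping are not stated, so reads of these genes and of near-identical nuclear copies could be split or shared. The 3 nuclear copies listed, MTND2P28, MTND4P12 and MTATP6P1, reached at most 23.9, 49.4 and 252 RPKM in total RNA.

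All 15 mitochondrially encoded genes were depleted from HEK293A polysomes relative to total RNA, and each was below the median nuclear gene at every LIN28B level. The messenger RNAs had a median log2 polysome-to-total difference of -3.11, against 0.0045 over all genes. The least depleted were MT-CYB at -1.37 and MT-CO1 at -1.63, and the most depleted was MT-ATP8, the short ATP synthase subunit, at -4.26. Nuclear genes for the same respiratory complexes lay on the other side, with 72 of 74 higher in polysomes and none lower. In these bulk libraries, lower polysome association in every cell and association in fewer cells cannot be told apart.

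For MT-CYB, total RNA stood at 3270, 3350, 3093, 3922 and 3723 RPKM from X0 to X4, and polysome RNA at 675, 919, 629, 1272 and 1915 RPKM. Every polysome value lay below every total value, and the gap was narrowest at X4. Its difference was -1.37 ± 0.21 (SE, 5 level pairs), 2.58-fold lower, with a limma adjusted p of 0.000316. MT-ATP8 had 785, 821, 905, 988 and 1018 RPKM in total RNA and 20.3, 44.1, 10.0, 64.7 and 76.9 RPKM in polysomes. The groups were far apart, and the polysome value at X2 rested on 19 reads. Its difference was -4.26 ± 0.36 (SE), 19.2-fold lower, with a limma adjusted p of 6.58e-06.

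By complex, the 7 complex I messengers ranged from -2.12 for MT-ND5 to -3.73 for MT-ND4L on the log2 scale of this difference. The complex IV messengers MT-CO1, MT-CO3 and MT-CO2 stood at -1.63, -2.36 and -2.91, and the ATP synthase messengers MT-ATP6 and MT-ATP8 at -3.42 and -4.26. The ribosomal RNAs were at -3.28 for MT-RNR1 and -3.40 for MT-RNR2. Over all 11125 genes tested by limma after centring each library on its median nuclear gene, 31.8% were called lower and 35.4% higher. On the deposited RPKM scale, without that centring, the calls over all genes split into 2425 higher and 5871 lower, against 3934 and 3543, while the 15 members stayed lower.

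**Figure D1:**
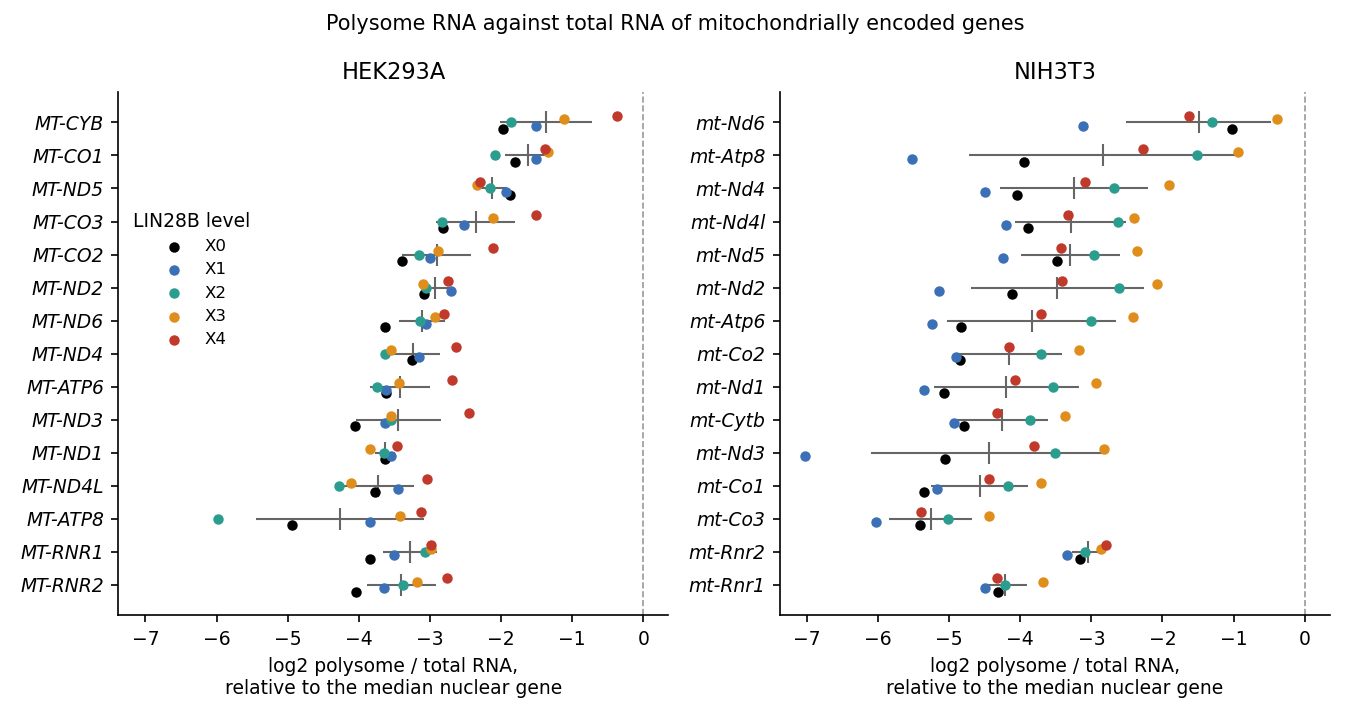
Log2 polysome / total RNA relative to the median nuclear gene (horizontal axis) for each mitochondrially encoded gene (rows) in HEK293A and NIH3T3. Coloured points are the 5 LIN28B levels and the bar is the mean ± SD over them. All HEK293A points lie left of 0, with MT-CYB nearest to 0 and MT-ATP8 farthest.

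Among nuclear respiratory chain genes the largest differences in HEK293A were those of NDUFA4, COX7A2 and NDUFA2, at 2.80, 2.78 and 2.78, and the list's median was 1.95. These encode small subunits of the electron transport complexes. Of 74 nuclear genes for mitochondrial ribosomal proteins, 67 were higher and 2 lower, with a median of 1.62. MRPL54, MRPS18C and MRPL36 led them at 2.47, 2.35 and 2.33. Genes that transcribe and copy the mitochondrial genome were higher in 9 of 12 cases and lower in 2, led by SSBP1, the mitochondrial single-strand binding protein, at 2.19. RNA processing and stability genes were higher in 12 of 21 and lower in 2, led by SLIRP, a stabiliser of mitochondrial messages, at 2.77. Translation factors of the organelle were higher in 10 of 14 and lower in 1, led by the initiation factor MTIF3 at 1.57.

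Depletion was also seen in NIH3T3, where the 12 messengers and 2 ribosomal RNAs whose polysome libraries alone averaged at least 1 RPKM were all lower in polysomes. A further 5 genes, mt-Nd6 and 4 transfer RNAs, reached the filter of a mean of 1 RPKM through total RNA, which fixed their direction, so their calls support nothing. The 13 messengers had a median log2 difference of -3.84 against 0.10 over all genes. The most depleted messenger was mt-Co3 at -5.26 and the least depleted mt-Nd6 at -1.49. In limma, 25.6% of 10952 genes were called lower and 35.8% higher. The rule on polysome libraries alone was not applied to all genes, so these shares have another base than the 14 members under it. On the deposited scale all genes split 7853 higher and 1495 lower, against 3922 and 2804 after centring, and the 14 remained lower.

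Total RNA of mt-Co3 was 8240, 10676, 9075, 7370 and 10520 RPKM from X0 to X4, and polysome RNA 281, 215.7, 425, 508 and 349 RPKM. No polysome value came near a total value. The difference was -5.26 ± 0.19 (SE), 38.3-fold lower, with a limma adjusted p of 1.08e-08. For mt-Nd6 total RNA was 1.23, 5.88, 2.28, 1.35 and 1.67 RPKM and polysome RNA 0.740, 0.466, 1.20, 1.61 and 0.484, so that these ranges overlapped and X3 was higher in polysomes. At such levels the 0.5 RPKM added before taking logs shrinks the difference, which was -1.49 ± 0.32 (SE), limma adjusted p = 0.00245.

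The other complex I messengers of NIH3T3 lay between -3.24 for mt-Nd4 and -4.44 for mt-Nd3, and cytochrome b, mt-Cytb, at -4.25. Complex IV messengers mt-Co2 and mt-Co1 were at -4.16 and -4.57. The ATP synthase messengers mt-Atp8 and mt-Atp6 were at -2.84 and -3.84. Ribosomal RNAs were low in these libraries, at 49.4 to 76.3 RPKM for mt-Rnr1 and 18.5 to 31.2 RPKM for mt-Rnr2 in total RNA, and their differences were -4.21 and -3.05. The transfer RNA mt-Tt had 17.3 to 37.8 RPKM in total RNA, from 172 reads, and 0 in all 5 polysome libraries, at least 51.6-fold lower when 3 reads over the group are taken as the floor. The other 3 transfer RNAs that passed the filter, mt-Tl1, mt-Ts1 and mt-Tw, had 1 polysome read each over the 5 levels. Without the X0 libraries mt-Tw fell under the filter and was not tested, since its total RNA was 9.55 RPKM at X0 and 0.679 to 2.79 elsewhere.

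The cell lines ordered their messengers differently in polysome association. Across the 13 messengers the Spearman correlation of the log2 difference between lines was -0.46, while that of the median total RPKM was 0.84. These are descriptions over genes that share libraries and precursors. In NIH3T3 nuclear respiratory chain genes were split, 34 higher and 18 lower of 74 with a median of 0.13, and the ones with the largest differences, Atp5e, Cox8a and Cox7c, were lower at -1.95, -1.41 and -1.37. Mitochondrial ribosomal protein genes were 39 higher and 16 lower of 80. Smaller lists gave 5 higher and 2 lower of 9 for transcription and replication, 4 and 2 of 16 for RNA processing, and 4 and 2 of 9 for translation factors.

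The next question was whether polysome association, here the log2 polysome-to-total ratio on the deposited scale, changed with LIN28B level in HEK293A. It rose per level for 6 of the 15 genes and fell for 1. The risers were MT-CYB, MT-ND3, MT-CO3, MT-CO2 and both ribosomal RNAs, and the complex I subunit MT-ND5 was the one that fell. Over 11125 genes limma called 19.2% up and 38.9% down, with a median slope of -0.07, so a call in either direction was common.

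For MT-CYB the polysome RPKM was 20.6, 27.4, 20.3, 32.4 and 51.5% of the total RPKM from X0 to X4. The X4 value stood above the rest, and X0 and X2 were nearly level. The slope was 0.29 ± 0.074 (SE) per level, limma adjusted p = 0.00805. MT-ND5 had 22.1, 20.4, 16.5, 13.9 and 13.5%, falling at each step. Its slope was -0.20 ± 0.045 (SE), limma adjusted p = 0.00513.

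MT-RNR2 rose at each step, with polysome values of 4.92, 6.21, 7.07, 7.77 and 9.78% of total and a slope of 0.23 ± 0.045 (SE), limma adjusted p = 0.00289. MT-RNR1 had 5.66, 6.83, 8.75, 8.82 and 8.36%, and its slope was 0.15 ± 0.052 (SE), limma adjusted p = 0.0289. As total RNA of both was highest at X0, the ratio at X0 was lowest for both while their polysome RPKM was not. In polysomes MT-RNR1 was 140.5 RPKM at X0 against 90.8 to 114.4 elsewhere, and MT-RNR2 ran from 237 to 326 RPKM.

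Slopes of MT-CO3, MT-ND3 and MT-CO2 were 0.23, 0.26 and 0.19, with limma adjusted p-values of 0.0168, 0.0110 and 0.0220. MT-ATP8 had the steepest slope, 0.33 ± 0.20 (SE), and missed the threshold at a limma adjusted p of 0.16, with polysome values of 2.59, 5.38, 1.11, 6.55 and 7.56% of total. The remaining 7 messengers, MT-CO1, MT-ATP6, MT-ND1, MT-ND2, MT-ND4, MT-ND4L and MT-ND6, had slopes from -0.07 to 0.13 and were not called.

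With 4 levels in place of 5 the calls depended on the level left out, and some were lost without a change in slope. Members called numbered 9 without X1, 8 without X2 and 6 without X3, against 7 with all 5 levels. Over all genes these fits called 2244 up and 4383 down, 2501 and 4689, and 1380 and 3666. Without X4 no gene of the table was called in limma, members included. The slopes of MT-CYB, MT-CO3, MT-ND3 and MT-CO2 then came to 0.15, 0.11, 0.09 and 0.06, while those of MT-ND5, MT-RNR1 and MT-RNR2 stood at -0.23, 0.23 and 0.22. Without X0 only MT-CYB and MT-CO3 stayed called, at 0.34 and 0.30, and the slope of MT-RNR1 was 0.09. MT-ND3, MT-CO2, MT-RNR2 and MT-ND5 then had slopes of 0.28, 0.22, 0.21 and -0.20, as large as with all 5 levels or within 0.03 of it. With libraries centred on the median nuclear gene the split over all genes turned to 3270 up and 2819 down, from 2131 and 4329, and 9 members were called, the same 7 plus MT-ATP6 and MT-ND6 up.

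**Figure D2:**
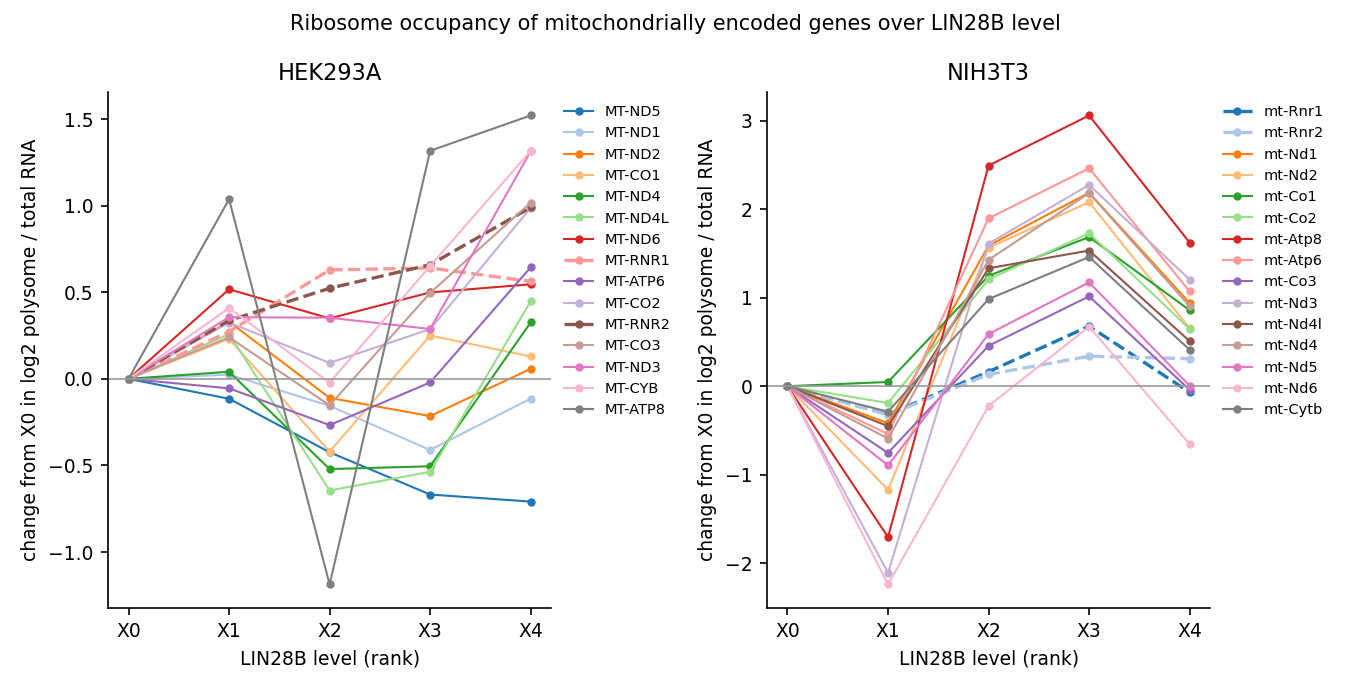
Change from X0 in log2(polysome / total RNA) (vertical axis) over LIN28B level (horizontal axis) for the mitochondrially encoded messenger RNAs (solid) and ribosomal RNAs (dashed), 1 library pair per point. In HEK293A MT-CYB and MT-RNR2 end above 0 and MT-ND5 below it, while in NIH3T3 the messengers peak at X3.

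The nuclear lists moved both ways in the same test. Respiratory chain genes were 26 up and 15 down of 74, where ATP5D and NDUFV1 fell by 0.35 per level each and SDHD, an anchor of succinate dehydrogenase, rose by 0.33. Mitochondrial ribosomal protein genes were 22 up and 22 down of 74, with MRPS2 at -0.40 and MRPL42 at 0.34. Transcription and replication genes were 6 up and 3 down of 12, where POLG, the mitochondrial DNA polymerase, fell by 0.30 and TFAM, which packages and activates the mitochondrial genome, rose by 0.29. RNA processing genes were 9 up and 7 down of 21, with FASTKD1 at 0.39 and DDX28 at -0.36. Translation factors were 4 up and 2 down of 14, with the elongation factor TUFM at -0.35.

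In HEK293A total RNA 1 of the 15 genes, MT-ATP8, was called over LIN28B level, and both ribosomal RNAs were highest in the knockout. Some complex I messengers varied without an order, chiefly at X3. MT-ND4L was 731 to 864 RPKM at the other levels and 1336 at X3, MT-ND4 2244 to 2425 and 3453, and MT-ND2 644 to 830 and 1080. Messengers as a class held 4.09% of reads at X3 and 3.20 to 3.48% at the other levels. MT-RNR1 was 2483 RPKM at X0 and 1330, 1307, 1231 and 1240 RPKM at X1 to X4. MT-RNR2 was 5758 RPKM at X0 and 3822, 3434, 3481 and 3336 RPKM at X1 to X4. In each the X0 library stood apart and the other 4 lay close together. Against the trend over levels these missed the threshold, with slopes of -0.21 ± 0.060 (SE) for MT-RNR1 and -0.17 ± 0.044 (SE) for MT-RNR2 and limma adjusted p-values of 0.11 and 0.083. The 4 upper levels together were lower than X0 by a log2 difference of -0.96 for MT-RNR1 and -0.71 for MT-RNR2. X0 is a single library here, so among these 5 libraries the knockout and that library cannot be told apart. The X0 library with let-7a, normalized apart, had 2318 RPKM of MT-RNR1 and 7759 of MT-RNR2. The part of let-7a in those values was not tested. Without X0 the slopes were -0.04 and -0.06, with limma adjusted p-values of 0.62 and 0.51. Both ribosomal RNAs were called without X1, at slopes of -0.26 and -0.20, and without X2, at slopes equal to those over 5 levels.

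The one member called in the total RNA trend was MT-ATP8, whose values rose at each level from 785 to 1018 RPKM. Its slope was 0.10 ± 0.020 (SE), limma adjusted p = 0.0372, and 1.48% of 11342 genes were called up and 0.758% down. The limma adjusted p passed the threshold no more after centring on the median nuclear gene, at 0.093, and without X0, X1 or X3, at 0.23, 0.086 and 0.059, while the slope stayed between 0.09 and 0.11 in these fits. The complex I subunit MT-ND3 was called up only without X4, of the alternatives run. The other messengers had slopes from -0.03 to 0.13. Of the nuclear lists only ATP5G2, of the ATP synthase ring, and MRPL24 were called, both down at -0.11.

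**Figure D3:**
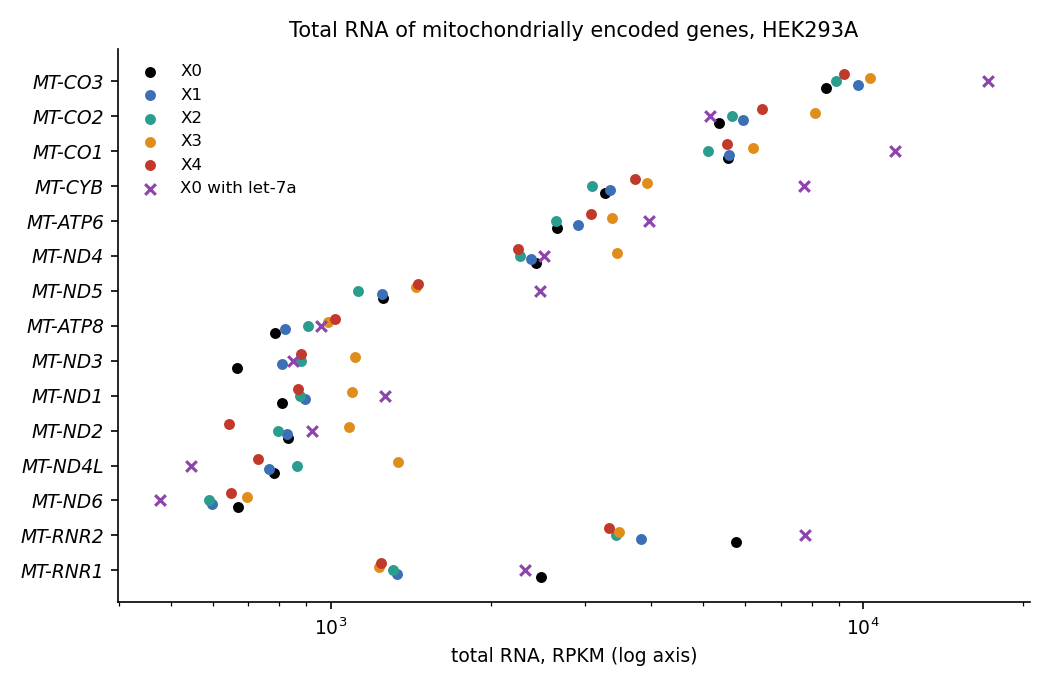
Total RNA in RPKM (log axis) of the 15 mitochondrially encoded genes in HEK293A, with a point for each LIN28B level and a cross for X0 cells given let-7a. MT-RNR1 and MT-RNR2 show the X0 point apart from X1 to X4, and MT-CO1, MT-CO3 and MT-CYB show the let-7a cross far to the right.

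In NIH3T3 no mitochondrially encoded gene was called over LIN28B level, in total RNA or in polysome association, and neither was any other gene. In limma 0% of 10952 genes were called up or down for the ratio and 0% of 10348 for total RNA, and edgeR on the recovered reads called none of the members either. At an unadjusted limma p under 0.05 there were 537 genes for the ratio, among them 1 messenger and 1 transfer RNA of mitochondria, and 1136 for total RNA, among them 1 mitochondrial transfer RNA. The messengers nevertheless kept one profile: all 13 had a positive slope of the ratio, from 0.16 to 0.80 with a median of 0.34 against -0.01 over all genes.

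For mt-Cytb the polysome RPKM was 5.24, 4.29, 10.4, 14.5 and 6.97% of total from X0 to X4. X2 and X3 were the high libraries, and X4 lay nearer to X0. In mt-Co1 it was 3.54, 3.66, 8.42, 11.4 and 6.43%, and in mt-Atp8 9.25, 2.79, 52.7, 78.2 and 28.7%. All 13 messengers were highest at X3, and mt-Co1 was the one messenger whose X1 value was not its lowest. Messengers of one organelle share libraries, so this common profile is 5 points, not 13. Taken as shares of all reads, the mitochondrially encoded genes held 0.0888, 0.0724, 0.146, 0.179 and 0.118% of polysome reads and 2.16, 2.27, 1.78, 1.52 and 2.03% of total RNA reads. X3 thus had the highest polysome share and the lowest total share, and the part of that library pair in the profile was not tested.

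Messenger order in NIH3T3 total RNA again began with mt-Co3, at a median of 9075 RPKM, then mt-Co1 at 4579 and mt-Co2 at 2149, with ranges that did not overlap. mt-Cytb and mt-Atp6 followed at 1181 and 1043 RPKM, and mt-Nd6 was last at 1.67 RPKM. The human counterpart MT-ND6 was at 649 RPKM, although the tables were normalized separately and strand is not stated for either.

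Transfection of let-7a into HEK293A knockout cells went with higher polysome RNA of every mitochondrially encoded messenger and ribosomal RNA. The comparison has 1 library on each side of each fraction, so no test was possible, and a change was counted from 1.5-fold. In polysome RNA the messengers had a median log2 change of 1.82 against 0.14 over all genes. How many of all genes rose in polysome RNA was not counted. All 15 members passed 1.5-fold upward in the polysome-to-total ratio, as did 18.4% of 11217 genes. The messengers' median log2 change of the ratio was 1.34 against 0.15 over all genes. In total RNA 5 of the 13 messengers passed 1.5-fold upward, MT-CYB, MT-CO1, MT-CO3, MT-ND5 and MT-ND1, as did 9.62% of 11305 genes. None of the 13 passed it downward, against 8.32% of those genes. Both comparisons share the X0 libraries, and the let-7a table was normalized apart from the other.

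MT-CO1 total RNA went from 5581 RPKM at X0 to 11482 with let-7a, and its polysome RNA from 1298 to 8921 RPKM. Polysome RPKM thus came to 77.7% of total RPKM with let-7a, against 23.3% without. This percentage compares libraries scaled separately and is not the part of the transcripts on polysomes, since it can pass 100, as for mt-Nd6 in NIH3T3 at X3, with 119.4%. MT-CYB total RNA was 3270 and 7734 RPKM and polysome RNA 675 and 5181, so the polysome value was 20.6% of the total value without and 67.0% with let-7a. MT-CO3 total RNA was 8509 and 17183 RPKM and polysome RNA 981 and 4561 RPKM, or 11.5% and 26.5% of the total value. These 3 messengers held the highest RPKM with let-7a in both fractions.

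Complex I messengers behaved unevenly in total RNA. MT-ND5 went from 1254 to 2469 RPKM and MT-ND1 from 809 to 1264 RPKM, while MT-ND6 went from 668 to 477 and MT-ND4L from 781 to 546 RPKM. The log2 changes of MT-ND6 and MT-ND4L, -0.49 and -0.52, did not reach the fold used. In the ratio MT-ND6 changed most of the 15, from 6.47 to 33.6%, a log2 change of 2.37, followed by MT-ND1, which reached 29.7%, at 2.18. MT-ATP8 changed least, from 2.59 to 4.52%, a log2 change of 0.79.

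The ribosomal RNAs had log2 ratio changes of 1.27 for MT-RNR1 and 1.01 for MT-RNR2. In total RNA MT-RNR1 was 2483 and 2318 RPKM without and with let-7a, and MT-RNR2 5758 and 7759 RPKM. Set against the whole range of X0 to X4, the let-7a polysome value lay above it for 11 of 13 messengers and both ribosomal RNAs and within it for the other 2 messengers. In total RNA 6 messengers lay above that range, 3 below and 4 within. How many of all genes lay outside their ranges was not counted, so these places are given as values only.

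Over all genes 9.62% of 11305 passed 1.5-fold upward in total RNA and 8.32% downward, and for the ratio 18.4% of 11217 passed upward and 6.57% downward. After centring on the median nuclear gene the ratio split into 1014 up and 1537 down, from 2066 and 737, and the 15 members still passed upward. With the median of X0 to X4 as the reference in place of X0, 13 members passed upward for the ratio, and over all 11227 genes 3858 passed upward and 1767 downward. MT-ATP8 then turned to -0.25, and MT-RNR2 stood at 0.48, under the fold.

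The let-7a polysome library was the smallest, at 7.57 M reads, and 2.96% of it was mitochondrially encoded, against 0.549% at X0. In the matching total RNA the shares were 7.16 and 4.41%. Nuclear-retained NEAT1, chosen after its values were seen, had polysome RNA at 4.10 to 7.31% of total over X0 to X4 and at 42.3% with let-7a. MALAT1, another nuclear noncoding RNA chosen the same way, was at 17.9 to 24.9% and 23.8%. The part of these in the mitochondrial values was not tested.

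Transfer RNAs could be read only within the let-7a libraries, as the HEK293A table of levels lists none. MT-TT was the highest at 136.1 RPKM in total RNA, from 320 reads, and 44.1 RPKM in polysomes, from 22 reads. MT-TI followed at 89.1 and 7.66 RPKM, from 219 and 4 reads.

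**Figure D4:**
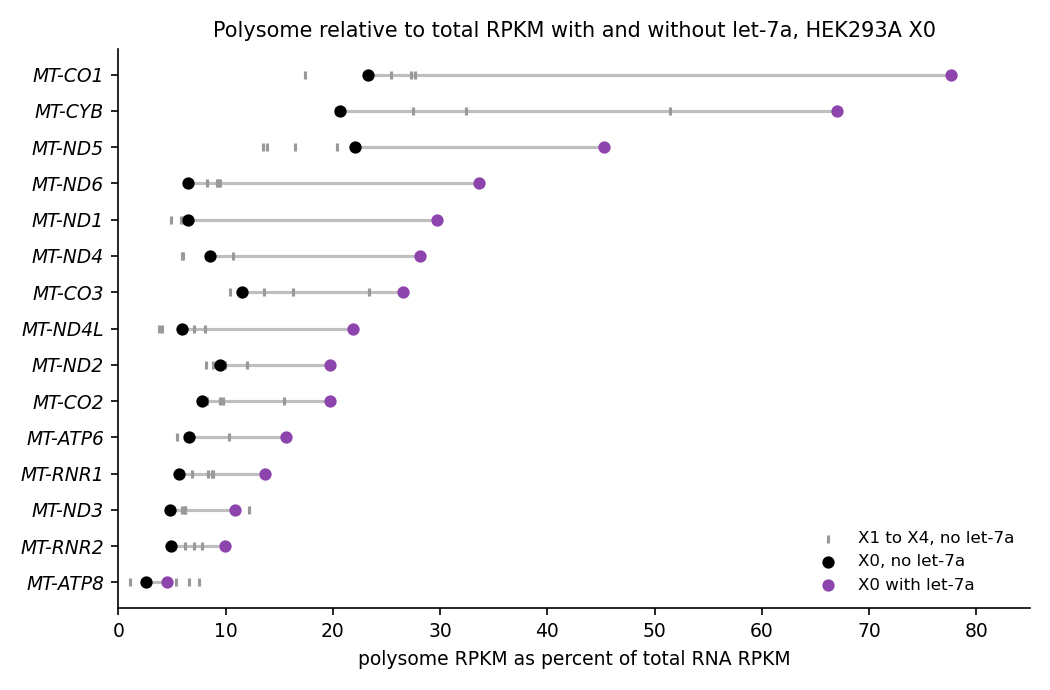
Polysome RPKM as a percentage of total RNA RPKM (horizontal axis) for each mitochondrially encoded gene in HEK293A X0 without let-7a (black) and with let-7a (purple), with X1 to X4 as grey ticks, 1 library pair per mark. The purple point lies right of the black point in all 15 genes, reaching 77.7% in MT-CO1, and lies inside the range of the grey ticks for MT-ND3 and MT-ATP8.

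Small RNA libraries showed a second contrast, since mitochondrial fragments were frequent in total small RNA and scarce among AGO2-bound RNA. They made up 11.3 to 16.9% of the 4 total libraries, 12372 to 18280 counts each, and 0.201 to 0.313% of the 4 AGO2-bound libraries, 300 to 490 counts. Of the 7 messengers with a mean of at least 10 counts in AGO2-bound libraries, 6 were lower there in edgeR. Of all 115 features tested, 47.8% were called lower and 22.6% higher. Those shares are not limited by AGO2-bound counts, and the share under the same limit was not counted. The other 6 messengers and 9 transfer RNAs were called lower too, but they passed the filter through total small RNA, which favours that direction, so they are given as values and not as support. Library totals were 73083 to 172995 counts, and hsa-mir-125a alone took 43.4 to 57.9% of each library.

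Fragments of MT-ND5 were the most numerous member in total small RNA, at 4129 to 6405 counts, against 63 to 134 in AGO2-bound RNA. The groups did not overlap as CPM (counts scaled to library size) either, at 40507 to 56497 against 450 to 775. In edgeR's quasi-likelihood test with TMM scaling its log2 difference was -3.04, adjusted p = 2.02e-08. MT-CYB had 1484 to 2150 counts in total and 8 to 22 in AGO2-bound RNA, with a difference of -3.80, edgeR adjusted p = 1.96e-09. The lowest estimate among messengers present in both fractions was that of MT-CO2, at -4.29. MT-ATP8 had 9 to 12 counts in total libraries and 0 in all AGO2-bound ones, at least 2.03-fold lower under TMM scaling and 18.6-fold under library totals with 3 counts over the group as the floor.

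MT-ND2 was the messenger not called, with 788 to 1038 counts in total and 75 to 101 in AGO2-bound RNA. It was the top mitochondrial feature in 3 of the 4 AGO2-bound libraries, and its log2 difference was -0.47, edgeR adjusted p = 0.19. Its nuclear copy MTND2P28 had a difference of 0.09, while another copy, MTND5P11, was at -4.29. Reads of such copies and of the mitochondrial gene cannot be told apart where the sequences match.

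Among transfer RNAs MT-TP was the most numerous, at 140 to 361 counts in total and 2 to 6 in AGO2-bound RNA, a log2 difference of -3.16, edgeR adjusted p = 1.13e-07. MT-TE followed, at 123 to 178 counts in total and 0 to 5 in AGO2-bound RNA, a log2 difference of -2.82. MT-TA was not called, with 81 to 153 against 7 to 16 counts and a difference of -0.53, edgeR adjusted p = 0.16. Transfer RNA fragments held 0.667 to 1.09% of total libraries and 0.0140 to 0.0396% of AGO2-bound ones. Features were next taken from a mean of at least 5 counts over both fractions together. Among these, AGO2-bound CPM lay below total CPM without overlap for 13 of 13 messengers and 10 of 11 transfer RNAs. The same held for 79.8% of all 104 such features, and 5.77% lay above without overlap. MT-ATP8, MT-ND3, MT-ND6 and all of these transfer RNAs but MT-TA and MT-TQ averaged under 5 counts in AGO2-bound libraries. They reached the cutoff through total small RNA, which favours lower AGO2-bound values, so they are given as values and not as support. Ribosomal RNA fragments were rare, 3 to 10 counts per total library and 0 to 4 per AGO2-bound library, and were not tested. By their headers, the small RNA counts are of reads left unmapped by an earlier mapping. The part of that step in this rarity and in the library shares was not tested.

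Scaling decided how large these differences were. TMM factors were 0.232 to 0.525 in AGO2-bound and 2.76 to 3.26 in total libraries, and the members' messenger median was -2.71 under TMM, against -1.72 over the 115 features. It was -2.66 with features absent from AGO2-bound RNA set at their bounds. Under library totals it was -5.92, or -5.82 with those at their bounds, against -4.75 over all features, and all 23 members were called lower, MT-ND2 and MT-TA included. With library totals 87.8% of the features were called lower and 5.22% higher. The 13 microRNA features tested had a median of 2.40 under TMM and -0.81 under library totals.

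**Figure D5:**
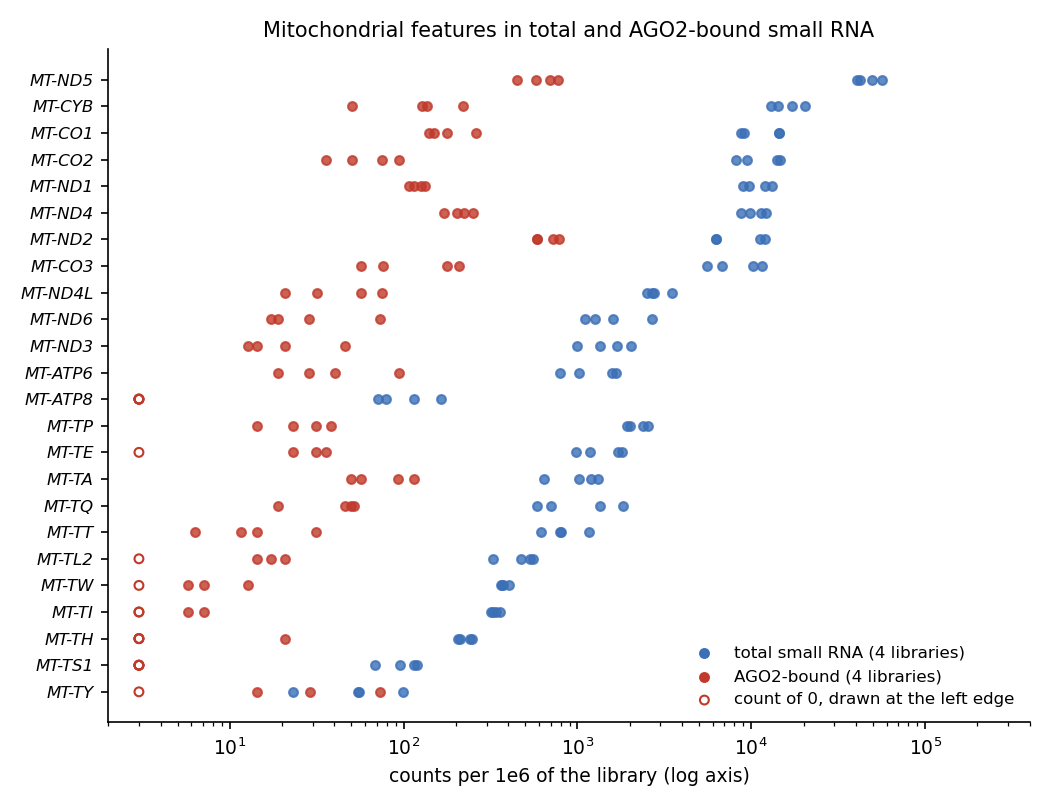
CPM, counts scaled to library size (log axis), for mitochondrially encoded features with a mean of at least 5 counts (rows) in the 4 total (blue) and 4 AGO2-bound (red) small RNA libraries, with counts of 0 as open circles at the left edge. MT-ND5 is the highest row in total small RNA, and no messenger's groups overlap.

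Neither let-7 transfection nor LIN28B level called a member in these small RNA libraries under TMM scaling. For let-7 the messengers' log2 estimates ran from -0.33 to 0.63 with a median of 0.18, the features called were 0.87% up and 0% down of 115, and 16 features had an unadjusted edgeR p under 0.05, including 1 mitochondrial transfer RNA, MT-TQ. Under library totals 7 members were called higher with let-7, MT-ATP6, MT-CO2, MT-CYB, MT-ND2, MT-ND6, MT-TE and MT-TQ, with estimates of 0.57 to 1.22, while 14.8% of the 115 features were called up and 0.87% down. For X3 against knockout edgeR called 0% of features up and 0% down, 6 had an unadjusted p under 0.05 and none was a member, and the messengers' estimates ran from -0.21 to 0.64.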

How the data were processed

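Polysome and total RNA were analysed from RPKM values that the authors deposited, 1 column per level and fraction, and small RNA from deposited counts per gene. Per the submitters' processing notes, cutadapt, STAR, hg19 and mm10 were used; for the counting tool, annotation and strand setting, nothing was given in the sources used here. The small RNA headers speak of reads left unmapped by an earlier mapping.

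Genes averaging 1 RPKM or more were tested with limma 3.58.1 in R 4.3.3 on log2(RPKM + 0.5), with Benjamini-Hochberg adjustment over all genes at 0.05. The ratio of polysome to total and the total RNA were fitted against level rank, and polysome against total as level-paired log2 differences centred on the median nuclear gene. Whole reads were recovered from the RPKM steps for 100% of genes, within 0.02 of a whole number. Gene length was taken as the smallest at which a gene's values were all whole. A gene with few values above 0 finds such a length in any case, so that percentage is no check for sparse genes. Their reads can come out too few. Counts were tested with edgeR 4.0.16 (filterByExpr, TMM, quasi-likelihood test) on AGO2, let-7 and LIN28B terms, with 1 library per combination, so the spread is that around an additive model. Levels within the let-7a pair carry no test. DESeq2 1.42.0, other pseudocounts, filters and scalings, and omission of each library were alternatives. Scripts were tested on simulated data.

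Messenger and ribosomal RNAs could all be named, transfer RNAs from a mean of 10 counts, when called or when at an end of their class, and 3 nuclear genes per list and comparison by size of change. The members and lists were chosen with earlier results of these data known. The pairing of polysome with total libraries comes from the shared level in the labels.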

Additional observations from a re-analysis of the deposited data

Results flagged for a closer look

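Total RNA of the complex IV messenger MT-CO2 and its mouse counterpart lay on opposite sides of X0 in the cell lines. In HEK293A all of X1 to X4 were above X0, with a mean log2 difference of 0.27. In NIH3T3 all of X1 to X4 were below X0, with a mean log2 difference of -0.37 for mt-Co2. It was the only such case among the 15 genes listed in HEK293A, each looked at in total RNA and in polysome association. In total RNA, X1 to X4 were all above X0 for 5 of 13 HEK293A messengers and all below for 0. In NIH3T3 they were all above for 1 of 13 and all below for 3. How often such a case arises over all genes was not counted. Each side rests on a single X0 library, the tables were normalized separately, and the difference between lines was not tested.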

How the results depend on the processing

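Calls of members in polysomes against total RNA and in AGO2-bound against total small RNA held best. In NIH3T3 these counts include mt-Nd6 and 4 transfer RNAs that passed the filter through total RNA. For AGO2 they include 6 messengers and 9 transfer RNAs that passed it through total small RNA. The filter fixed or favoured the direction of these members, so their stability supports nothing. In HEK293A 15 members were lower in all alternatives, and omitting each level gave 15 to 15. In NIH3T3 omission gave 18 to 19, the 18 being all that passed the filter without X0, and a filter at 5 RPKM left 15 tested and called. For AGO2 omitting each library gave 21 to 23, where the added calls were MT-ND2 and MT-TA lower or MT-TY, with 2 to 15 counts in total libraries and 0 to 7 in AGO2-bound ones, higher. Without the pairing by level (no replicate block) the same 15 and 19 were called, and with a replicate block of the 4 small RNA conditions the same 21. The block thus changed no call of a member. Over all genes, leaving out the pairing gave 3828 higher and 3442 lower in HEK293A, from 3934 and 3543. In NIH3T3 it gave 3160 and 2434, from 3922 and 2804. The small RNA block gave 25 higher and 53 lower, from 26 and 55.

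Calls of trends over LIN28B level depended on which library was omitted, though several slopes stayed as large. Fewer members were called in HEK293A polysome association without X0, X3 or X4, at 2, 6 and 0. More were called without X1 or X2, at 9 and 8. For polysome association in HEK293A 7 members were called, 0 for X0 against the rest, 0 to 9 when a level was omitted (MT-ND5 then had slopes of -0.20 without X0 and -0.23 without X4, against -0.20), 10 with edgeR on recovered reads, and 5 with the variance trend taken over the mean log2 ratio, an alternative chosen after seeing the data, which lost MT-CO2 and MT-RNR1. Over all genes, edgeR called 3289 up and 3200 down, and omission of X0 left 124 up and 1465 down. The variance trend over the mean log2 ratio gave 2124 up and 4341 down. For HEK293A total RNA, where 1 was called, the count was 0 after centring, 1 (MT-RNR1) for X0 against the others and 0 to 3 on omission. All genes gave 70 up and 48 down after centring, 2 and 1 for X0 against the others, and 323 and 221 without X4. In NIH3T3 the count was 0 to 0 on omission in either trend and 1 for X0 against the others in total RNA, mt-Tw, with 16 reads at X0 and 1 to 3 elsewhere, where 1189 genes were called up and 1052 down. Comparisons of X0 with the rest have 1 library in 1 arm, assumed to vary like the others. Their counts are therefore not read as results about the members.

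For let-7 in small RNA the count was 7 under library totals, where 17 features were called up and 1 down, 1 (MT-TQ) with no filter on low counts and 0 to 1 on omission, the 1 being MT-TQ without either X3 AGO2-bound library. For LIN28B it was 0 to 0. In the let-7a transfection MT-ATP8 turned to -0.25 in the ratio with the median of X0 to X4 as reference, and in total RNA 6 members passed the fold, 4 of the original 5 among them. Over all genes, no filter gave 9299 lower in NIH3T3 polysomes, a filter at 5 RPKM gave 2550 higher in HEK293A, and small RNA gave 14 higher and 76 lower for AGO2 with no filter and 42 and 67 with DESeq2. The causes were not tested. Depth limits MT-ATP8 in polysomes at X2, which rests on 19 reads.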
